A study of Mus musculus with 42 samples.

Results

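Retinoic acid, the active form of vitamin A, is made, carried, sensed and destroyed by a small set of proteins, and the transcripts of 9 genes of that set, called here the retinoid genes, were followed across 4 hypothalamic nuclei. They were found by matching the listed symbols to the Ensembl identifiers of the deposited expression table, and all 9 of 9 were among its 37907 genes. The set was chosen by the level of Crabp1, which stood far above that of the other nuclei in the arcuate nucleus (ARC) of fed mice, so fed levels by nucleus are given as a description with no test. The fasted levels and the changes with fasting were no part of that criterion, although earlier results of all these libraries were known when the set was drawn up.

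The tissue came from wild-type male C57/BL6 mice, adult by the study's methods, with free access to food (fed) or without food for 24 hours (fasted). The ARC, ventromedial hypothalamus (VMH), dorsomedial hypothalamus (DMH) and paraventricular nucleus (PVN) were cut from cryosections with a laser, and the RNA was amplified before sequencing. There were 5 fed and 5 fasted libraries of the ARC, 6 and 6 of the VMH, 5 and 4 of the DMH, and 6 and 5 of the PVN, 42 in all. All mice were wild type. By the study's methods the 4 nuclei were dissected from each brain, so libraries of different nuclei share mice, but the labels do not say which ones, so that the mouse could not enter the tests between nuclei and these treat the libraries as independent. Each nucleus is a mixture of cell types, and in such tissue fewer cells of a type and less RNA per cell cannot be told apart.

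Vitamin A travels in blood as retinol. Inside cells, retinol is oxidised to retinaldehyde and then to retinoic acid, which binds nuclear receptors that sit on DNA as pairs of a retinoic acid receptor (RAR) and a retinoid X receptor (RXR). In the hypothalamus, retinoic acid synthesis is best known from tanycytes, the glia that line the ventricle beside the ARC and the DMH.

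Levels are given in RPKM, reads scaled to the length of the transcript and the depth of the library, which allows genes of different length to be compared. The deposited values hold an added count, so a gene without any read is listed at a small positive value rather than 0. That no-read value averaged 1.37 RPKM for Crabp1 and 0.844 RPKM for Rbp4 and was between 0.20 and 0.533 RPKM for the other retinoid genes. The whole number of reads behind each of the 378 values of the retinoid genes could be recovered from it, to within 0.005 reads. The libraries held 1328992 to 13248793 reads by the same route, and 18 of 20 marker genes of the nuclei that were in the table were highest in their own nucleus in both states, the exceptions being Prlh and Fezf2. The values also fell into 3 groups of 10, 16 and 16 libraries that shared no-read values, taken here as the batches in which they had been adjusted, and the first of these held no fasted DMH library.

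Crabp1 (ENSMUSG00000032291; GRCm38 chromosome 9, 54764748 to 54773110, plus strand, 802 exon bases) encodes a protein that binds retinoic acid in the cytoplasm. The 250 bases before its RefSeq start (GRCm38.p6, chr9:54764498-54764747, plus strand) are shown because no other retinoid gene differed between the nuclei by as much, and those of Rarb (chr14:16575477-16575726, minus strand), a receptor gene that was higher in the fasted ARC than in the VMH and PVN, because they alone among the promoters of the set held the motif searched. Capitals mark the pair of half-sites.
Crabp1: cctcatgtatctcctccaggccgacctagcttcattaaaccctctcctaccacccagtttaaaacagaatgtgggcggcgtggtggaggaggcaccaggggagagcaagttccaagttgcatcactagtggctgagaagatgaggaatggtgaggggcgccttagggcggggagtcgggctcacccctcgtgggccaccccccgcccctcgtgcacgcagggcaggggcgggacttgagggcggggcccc
Rarb: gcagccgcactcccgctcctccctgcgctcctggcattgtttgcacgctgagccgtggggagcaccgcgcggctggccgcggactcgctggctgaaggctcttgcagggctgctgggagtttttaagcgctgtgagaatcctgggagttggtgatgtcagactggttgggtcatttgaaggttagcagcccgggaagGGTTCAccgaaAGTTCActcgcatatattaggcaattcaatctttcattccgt

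The motif searched was a direct repeat of the half-site AGGTCA, with G also accepted as the first letter and T as the third, on both strands, with 1, 2 or 5 bases between the copies. RefSeq promoters, each 250 bases before to 50 after a start, were at hand for 8 of the 9 retinoid genes (16 promoters, none for Rdh10). The repeat with 5 bases between was found in 32 of 32851 mouse promoters, or 0.0974%, and among the retinoid genes it stood only in Rarb, at bases 53 to 37 before the start. Spacings of 1 and 2 bases were found in 0.222% and 0.268% of promoters and in 0 of the 16. A match describes the letters and is not a measured binding site.

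In fed mice, the 5 ARC libraries held Crabp1 at 245, 246, 186, 180 and 193 RPKM, from 649 to 945 reads each. The DMH libraries were at 2.65, 3.20, 4.51, 5.42 and 2.82 RPKM, from 3 to 15 reads. In the PVN the lowest, median and highest were 1.33, 3.67 and 7.68 RPKM, and in the VMH 1.33, 1.73 and 2.33 RPKM. All ARC libraries thus lay above all others, whereas the other nuclei overlapped each other, and the VMH and PVN reached down to the no-read value. Of the 6 fed VMH libraries, 5 held a single Crabp1 read and 1 held none, a count of 0 that allows up to 3 reads.

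**Figure D1:**
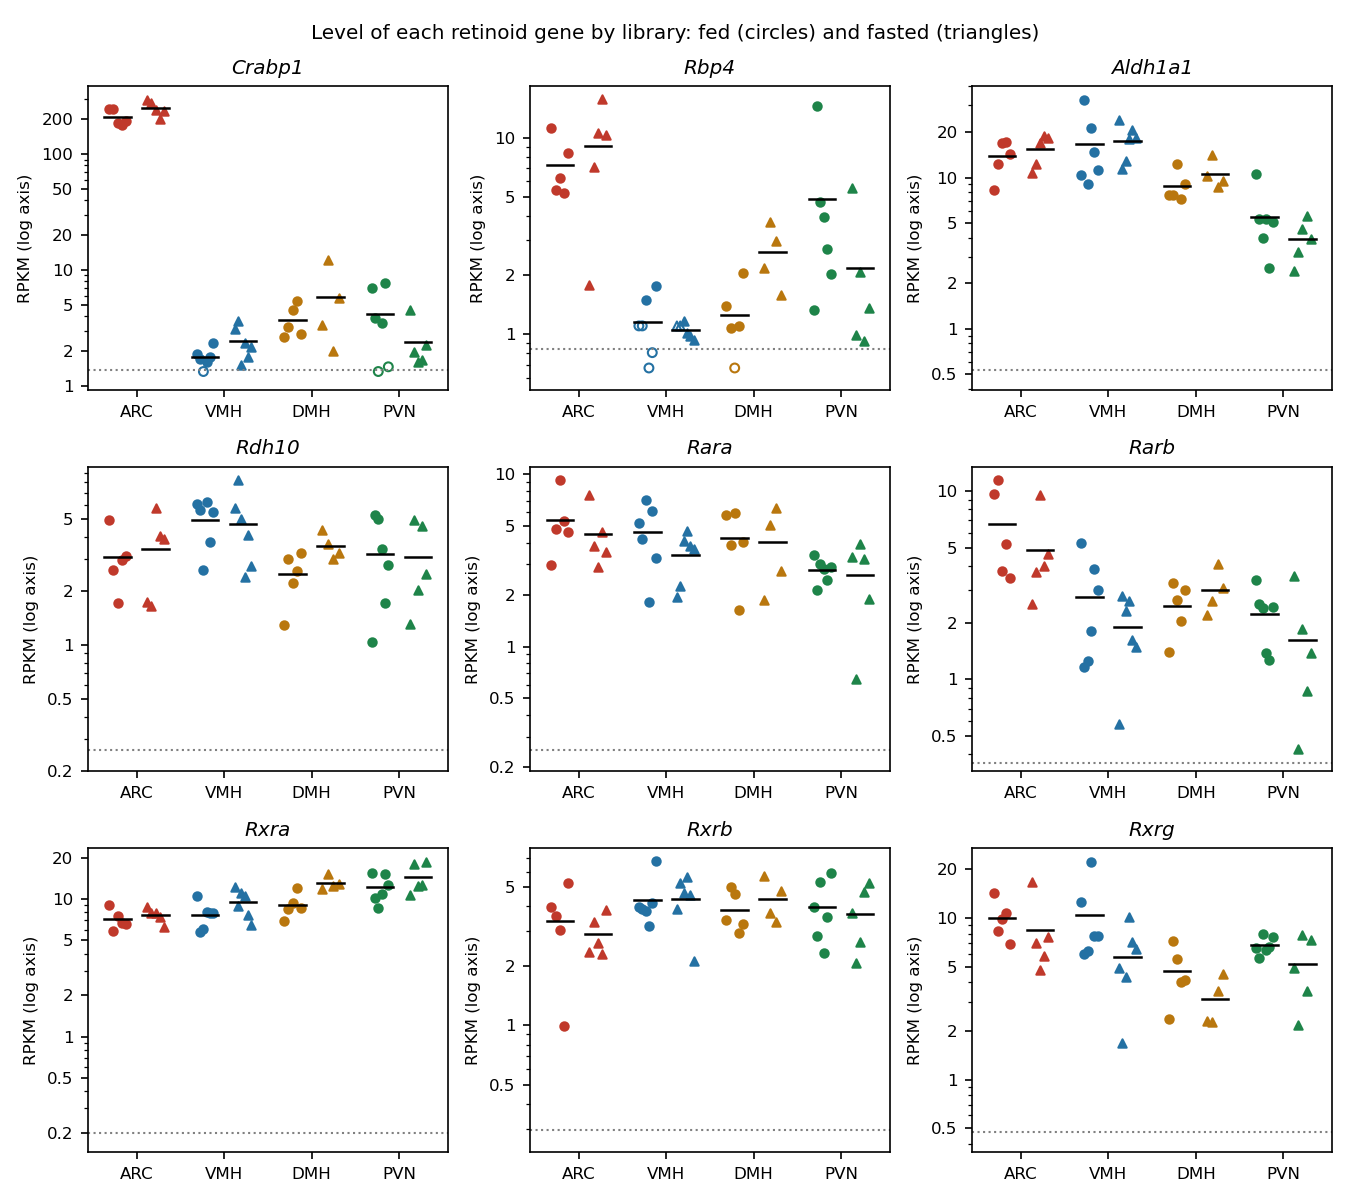
Level of each retinoid gene in each of the 42 libraries, in RPKM on a log axis, by nucleus (circles, fed; triangles, fasted; open symbols, 0 reads; black lines, group means; dotted line, no-read value averaged over the batches). Crabp1 stood at 180 to 296 RPKM in the ARC and at 12.3 RPKM or less elsewhere, whereas the nuclei overlapped for Rdh10, Rara and Rxrb.

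The fasted libraries, from other mice, gave the same order at the top. Crabp1 was at 296, 275, 239, 203 and 236 RPKM in the ARC (745 to 1537 reads) and at 3.35, 12.3, 2.02 and 5.69 RPKM in the DMH (2 to 44 reads). In the PVN it was at 4.55, 1.96, 1.61, 1.68 and 2.27 RPKM (1 to 8 reads), and in the VMH the lowest, median and highest were 1.53, 2.26 and 3.63 RPKM (1 to 4 reads). No fasted ARC library overlapped any library of another nucleus.

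In the test between nuclei of fasted mice, 5 of the 9 retinoid genes differed at an adjusted p under 0.1 (limma, F test, adjusted over the 33579 genes kept), against 11.9% of all genes kept. These were Crabp1, Rbp4, Aldh1a1, Rarb and Rxra. The filter of 1 RPKM keeps unread genes whose no-read value is above it, which lowers the share of all genes. With a filter of 5 RPKM, 3709 of 17399 genes were called. Rdh10, Rara, Rxrb and Rxrg did not pass, with adjusted p = 0.774, 0.557, 0.571 and 0.215. By pairs of nuclei, the retinoid genes called were 3 between ARC and VMH (8.91% of all genes), 3 between ARC and DMH (3.21%), 5 between ARC and PVN (4.19%), 0 between VMH and DMH (3.94%), 2 between VMH and PVN (9.24%) and 1 between DMH and PVN (3%). The VMH and DMH pair had 3 retinoid genes at a limma unadjusted p under 0.05, namely Crabp1, Aldh1a1 and Rxra, against 4067 of 33579 genes kept.

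On the log2(RPKM + 1) scale, Crabp1 was higher in the fasted ARC than in the VMH by 6.21 (SE 0.29, 95% interval 5.62 to 6.81, limma adjusted p = 3.31e-17). The difference from the DMH was 5.41 (SE 0.33, 4.75 to 6.07, adjusted p = 3.59e-14), and that from the PVN was 6.25 (SE 0.31, 5.62 to 6.87, adjusted p = 6.19e-17). Within the batches the differences were 6.09, 6.47 and 6.21 from the VMH, 5.74, 6.54 and 6.22 from the PVN, and 5.08 and 5.61 from the DMH in the batches that held it. By size of difference among the 33579 genes, Crabp1 ranked 3rd against the VMH, 4th against the DMH and 3rd against the PVN. By mean RPKM it ranked 94th in the fasted ARC and 125th in the fed ARC.

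The added count compresses ratios against the low nuclei. In RPKM, the fed ARC mean was 119, 56.5 and 50.7 times that of the VMH, DMH and PVN. From recovered reads scaled to depth alone, the fed ratios were 637 (95% counting interval 273 to 1964) for the VMH, 85.4 (62.1 to 121) for the DMH and 73.8 (57.5 to 96.5) for the PVN. The fasted ratios of such reads were 318 (189 to 582), 57.7 (47.3 to 71.2) and 291 (179 to 509). These intervals cover counting error only, and the widest rest on few reads, namely 5 in the fed VMH, 14 in the fasted VMH and 16 in the fasted PVN. Of those 16 reads, fasted PVN replicate 1 held 8, and without it the ratio was 510 (259 to 1182). Without fasted DMH replicate 2 the fasted ratio against the DMH was 86.8 (66.6 to 115). In the ARC itself the spread between libraries exceeded counting error. Its coefficient of variation was 19.8% in fed and 19.2% in fasted mice, where counting alone gives 3.67% and 3.24%. For the DMH it was 47.9% against 37.0% fed and 107% against 21.9% fasted. The PVN had 95.7% against 33.7% fed and 126% against 58.4% fasted. The VMH had 82.4% against 75.7% fasted, but lay below counting error when fed (70.8% against 118%). Leaving out 1 fed PVN library gave fed ratios against the PVN from 57.5 to 107. The highest, without replicate 5, lay above the interval given.

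Reads of ARC marker genes were also found in the other nuclei. Summed over the 5 ARC markers in the table (Npy, Agrp, Pomc, Ghrh and Tac2, neuropeptides of ARC neurons), the level was 1074 to 2626 RPKM in the ARC, 88.3 to 192 in the DMH, 30.0 to 104 in the PVN and 23.4 to 71.3 in the VMH. Outside the ARC, Crabp1 lay at 0.578% to 5.36% of its ARC mean. The library with the highest Crabp1 outside the ARC, fasted DMH replicate 2 with 44 reads, had the lowest ARC marker sum of the DMH, 88.3 RPKM or 5.33% of the ARC mean. The single markers did not go one way in it: of the 9 DMH libraries it had the lowest Pomc (3.36 RPKM) and Tac2 (27.0) and the second lowest Ghrh (34.8), but the highest Npy (18.1) and the fourth highest Agrp (5.01). The sum in the DMH was mostly Ghrh and Tac2, with fasted DMH means of 53.1 and 39.2 RPKM. Across libraries the Pearson correlation of Crabp1 with that sum (log2 values, a description) was 0.73 over 11 PVN libraries, 0.30 over 12 VMH libraries and −0.48 over 9 DMH libraries, which share batches. In the DMH the sign differed by marker, with 0.43 for Npy and 0.25 for Agrp against −0.21 for Pomc, −0.47 for Ghrh and −0.69 for Tac2. The part of neighbouring ARC tissue in the Crabp1 reads outside the ARC was not tested.

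**Figure D2:**
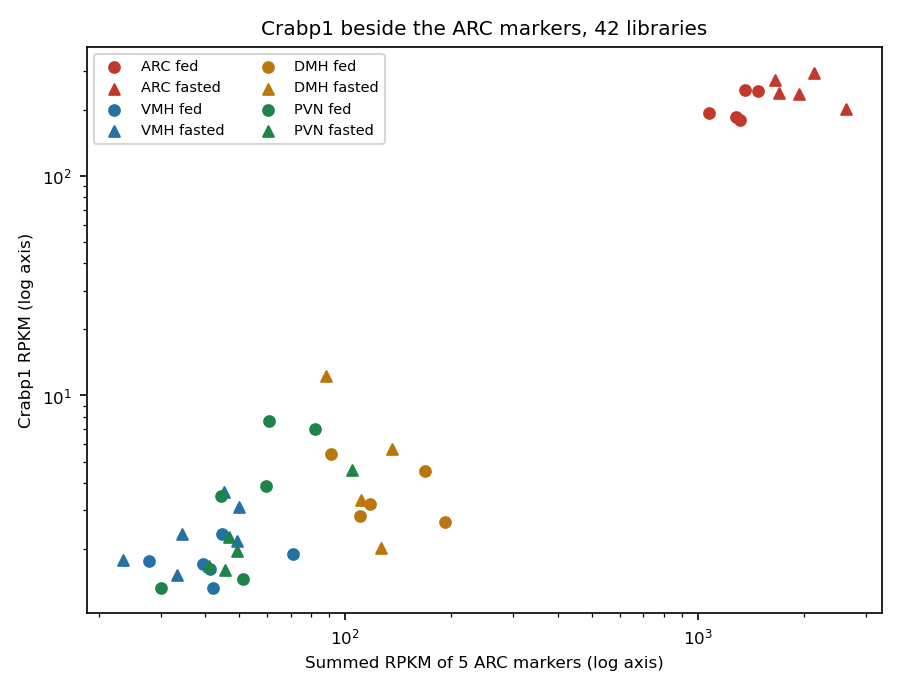
Crabp1 level against the summed level of 5 ARC markers in each of the 42 libraries, both in RPKM on log axes (circles, fed; triangles, fasted). The 10 ARC libraries stood apart in both measures, and among the other 32 the highest Crabp1 was 12.3 RPKM, in fasted DMH replicate 2.

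The genes whose pattern over the 42 libraries was most like that of Crabp1 (Pearson correlation of log2 values) were Agrp at 0.959, Tbx3 at 0.956, Six6 at 0.955, Irs4 at 0.950 and Npy at 0.950. Each of them was highest in the ARC. Among the retinoid genes themselves the largest correlations were those of Crabp1 with Rbp4 at 0.72 and with Rarb at 0.65, both also high in the ARC, and that of Aldh1a1 with Rxra at −0.58. The other retinoid genes had weaker neighbours, such as Gm16001 for Rara at 0.614, Plekhb1 for Aldh1a1 at 0.818 and Gabrq for Rarb at 0.733. Those of Rbp4 were Prune2, Rpl5 and Irs4, and those of Rxra were Ebf1, Crh and Ubash3b.

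Rbp4 (ENSMUSG00000024990; GRCm38 chromosome 19, 38116629 to 38125281, minus strand, 1343 exon bases) encodes the protein that carries retinol in blood. In fasted mice it was at 1.78, 7.12, 10.5, 15.6 and 10.2 RPKM in the ARC (3 to 112 reads) and at 2.16, 3.71, 2.97 and 1.59 RPKM in the DMH (14 to 24 reads). The PVN libraries were at 5.55, 0.992, 2.08, 0.927 and 1.36 RPKM (1 to 13 reads), and the VMH libraries lay between 0.939 and 1.17 RPKM, median 1.06, with 0 to 5 reads. ARC replicates 2 to 5 stood above every library of the other nuclei, whereas replicate 1, with 3 reads, lay among those of the DMH and PVN. In fed mice the order was ARC (7.26 ± 2.50 RPKM, SD, n = 5), PVN (4.87 ± 4.89, n = 6), DMH (1.26 ± 0.514, n = 5) and VMH (1.16 ± 0.410, n = 6) by mean log2 value, and each neighbour in it overlapped the next.

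The fasted ARC was higher than the VMH by 2.08 for Rbp4 on the log2(RPKM + 1) scale (SE 0.36, 95% interval 1.34 to 2.82, limma adjusted p = 1.06e-04). It was higher than the PVN by 1.61 (SE 0.38, 0.84 to 2.38, adjusted p = 0.00872) and than the DMH by 1.30 (SE 0.40, 0.48 to 2.12, adjusted p = 0.0926). Within the batches these differences were 0.40, 2.21 and 2.80 from the VMH, −1.24, 1.97 and 2.68 from the PVN, and 1.32 and 2.09 from the DMH. In the first batch, with 1 fasted ARC and 1 fasted PVN library, the direction against the PVN was thus the opposite. The call against the DMH was lost under 13 of 19 alternatives, with adjusted p from 0.00659 to 0.263 over all of them.

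Aldh1a1 (ENSMUSG00000053279; GRCm38 chromosome 19, 20492715 to 20643465, plus strand, 4937 exon bases) encodes a dehydrogenase that turns retinaldehyde into retinoic acid. Its no-read value was 0.533 RPKM where its annotated exon bases would give 0.222 RPKM, so its RPKM are compared here only between libraries and not with those of other genes. The fasted PVN was at 2.42, 3.19, 4.55, 5.55 and 3.92 RPKM (9 to 78 reads), the DMH at 10.2, 14.1, 8.64 and 9.44 RPKM, and the ARC at 10.7, 12.2, 16.9, 18.7 and 18.2 RPKM. In the VMH the lowest, median and highest were 11.4, 18.2 and 23.9 RPKM. Every fasted PVN library was below every library of the other nuclei, and those of the ARC, DMH and VMH overlapped.

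Aldh1a1 was lower in the fasted PVN than in each other nucleus. The VMH was higher by 1.91 on the log2(RPKM + 1) scale (SE 0.27, 95% interval 1.36 to 2.45, limma adjusted p = 2.59e-06), the ARC by 1.74 (SE 0.28, 1.17 to 2.3, adjusted p = 5.39e-05) and the DMH by 1.25 (SE 0.30, 0.65 to 1.85, adjusted p = 0.0132). Within the batches the differences were 2.36, 1.75 and 1.85 for the VMH, 1.78, 1.67 and 1.78 for the ARC, and 1.43 and 0.82 for the DMH. In fed mice the order was VMH (16.6 ± 9.08 RPKM, n = 6), ARC (13.8 ± 3.66, n = 5), DMH (8.76 ± 2.07, n = 5) and PVN (5.44 ± 2.70, n = 6). Neighbours in that order overlapped, the fed PVN through replicate 1 at 10.5 RPKM.

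Rdh10 (ENSMUSG00000025921; chromosome 1, 16105774 to 16133734, plus strand) encodes a dehydrogenase for the step before, from retinol to retinaldehyde. It lay between 1.05 and 8.20 RPKM over the 42 libraries, with group means from 2.47 ± 0.771 RPKM in the fed DMH (n = 5) to 4.95 ± 1.45 in the fed VMH (n = 6). The fasted means were 4.70 ± 2.14 in the VMH, 3.56 ± 0.582 in the DMH, 3.41 ± 1.73 in the ARC and 3.07 ± 1.61 in the PVN. No pair of fasted nuclei passed the threshold, and the difference with the lowest p, VMH minus PVN at 0.50, had a 95% interval of −0.11 to 1.10.

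**Figure D3:**
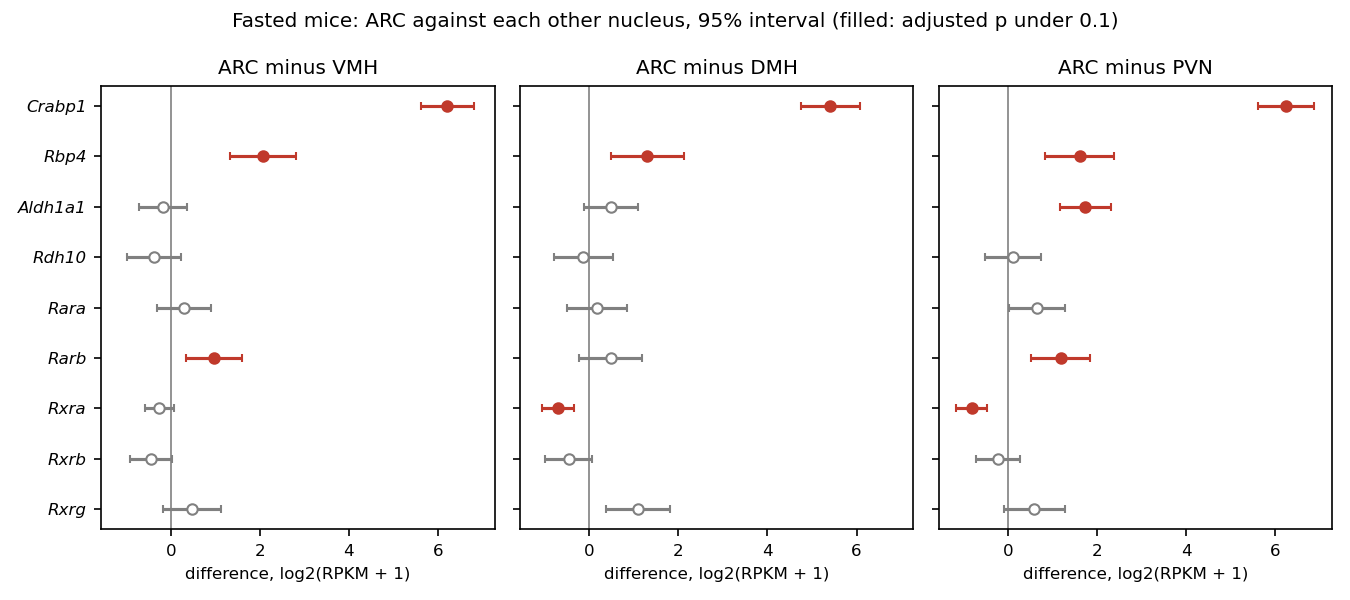
Difference of each retinoid gene between the fasted ARC and each other fasted nucleus on the log2(RPKM + 1) scale, with 95% intervals from limma (filled red, adjusted p under 0.1; open grey, above it). Crabp1 lay at 5.41 to 6.25 and Rbp4 at 1.30 to 2.08, whereas Rxra was lower in the ARC than in the DMH, at −0.71, and than in the PVN, at −0.82.

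Rarb (ENSMUSG00000017491; chromosome 14, 16430839 to 16819156, minus strand, 5265 exon bases) encodes the beta type of the retinoic acid receptors, and Rara (ENSMUSG00000037992; chromosome 11, 98927818 to 98974942, plus strand) the alpha type. Of the annotated exon bases of Rarb, 38.4% overlap those of Top2b and of an unnamed gene, and the reads carry no strand. Reads of Rarb and of its overlapping genes thus cannot be told apart there, and its values are uncertain. Its no-read value was 0.361 RPKM where its annotated exon bases would give 0.208 RPKM. The bases counted may therefore differ from those annotated, and its RPKM are compared here only between libraries. In fasted mice Rarb was at 2.51, 3.71, 9.55, 3.99 and 4.61 RPKM in the ARC and at 2.19, 2.60, 4.11 and 3.08 in the DMH. The PVN was at 3.55, 0.425, 1.84, 0.866 and 1.38 RPKM (1 to 30 reads). The VMH lay between 0.581 and 2.79 RPKM, median 1.97 (1 to 39 reads). ARC replicate 3 was the highest of all, and the ARC overlapped each other nucleus.

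The ARC was higher than the PVN for Rarb by 1.18 on the log2(RPKM + 1) scale (SE 0.33, 95% interval 0.52 to 1.84, limma adjusted p = 0.0341) and than the VMH by 0.97 (SE 0.31, 0.34 to 1.61, adjusted p = 0.0526). Without fasted ARC replicate 3 the ARC no longer passed against either, and the test over all 4 nuclei had an adjusted p of 0.171. The within-batch differences were −0.37, 1.81 and 1.33 from the PVN and 0.52, 1.03 and 1.05 from the VMH. In fed mice Rarb was at 6.70 ± 3.61 RPKM in the ARC (n = 5) and between 2.22 and 2.73 RPKM on average elsewhere, with overlap between neighbours.

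Rara showed no called difference. Its fasted means were 4.49 ± 1.83 RPKM in the ARC, 4.02 ± 2.09 in the DMH, 3.42 ± 1.10 in the VMH and 2.59 ± 1.32 in the PVN. The ARC minus PVN difference, 0.66 with a 95% interval of 0.03 to 1.29, had an unadjusted p of 0.0411 and a limma adjusted p of 0.362. The fed order of the nuclei by mean log2 value was ARC, VMH, DMH and PVN, from 5.40 ± 2.31 to 2.78 ± 0.443 RPKM.

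Among the retinoid X receptors, which pair with the RARs and with other nuclear receptors, Rxra (ENSMUSG00000015846; chromosome 2, 27676440 to 27762957, plus strand) was lower in the ARC, where Crabp1 was highest, than in the DMH and PVN. In fasted mice it was at 8.80, 7.85, 7.95, 7.35 and 6.22 RPKM in the ARC and at 11.9, 15.1, 12.4 and 12.9 RPKM in the DMH. The PVN was at 10.7, 18, 12.5, 12.6 and 18.7 RPKM. The VMH lay between 6.43 and 12.2 RPKM, median 9.72. Each ARC library was below each DMH and PVN library. Rxra was the most deeply counted of the retinoid genes, with 53 to 754 reads a library.

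The ARC was lower for Rxra than the PVN, at −0.82 on the log2(RPKM + 1) scale (SE 0.17, 95% interval −1.16 to −0.48, limma adjusted p = 0.00157), and than the DMH, at −0.71 (SE 0.18, −1.06 to −0.35, adjusted p = 0.0221). The ARC and VMH overlapped, and their difference of −0.26 (SE 0.16, −0.58 to 0.07) did not pass (adjusted p = 0.465). The VMH was lower than the PVN, at −0.56 (SE 0.16, −0.89 to −0.24, adjusted p = 0.0212), with overlap. Within the batches the ARC minus PVN difference was −0.26, −0.84 and −1.08, the VMH minus PVN difference −0.03, −0.44 and −1.03, and the ARC minus DMH difference −0.69 and −0.81. In fed mice the order was PVN (12.2 ± 2.76 RPKM), DMH (9.06 ± 1.87), VMH (7.72 ± 1.71) and ARC (7.14 ± 1.22), each overlapping the next.

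Rxrb (ENSMUSG00000039656; chromosome 17, 34031812 to 34038399, plus strand) was the most even of the set, with group means between 2.89 ± 0.680 RPKM in the fasted ARC and 4.38 ± 1.06 in the fasted DMH. Rxrg (ENSMUSG00000015843; chromosome 1, 167598384 to 167639623, plus strand), the gamma type, had fasted means of 8.39 ± 4.78 (ARC), 5.74 ± 2.83 (VMH), 5.17 ± 2.44 (PVN) and 3.15 ± 1.08 RPKM (DMH). Each fasted ARC library of Rxrg was above each fasted DMH library, at a difference of 1.09 (SE 0.36, 95% interval 0.37 to 1.82) that missed the threshold with a limma adjusted p of 0.118. In fed mice Rxrg was at 9.98 ± 2.77 (ARC), 10.4 ± 6.31 (VMH), 6.77 ± 0.871 (PVN) and 4.66 ± 1.82 RPKM (DMH).

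Marker levels of several cell types also differed between the nuclei in which these genes differed. The summed level of 10 of 10 tanycyte and ependymal markers in fasted mice was 37.8 to 77.1 RPKM in the ARC, 64.1 to 79.2 in the DMH, 27.1 to 36.8 in the PVN and 21.3 to 30.9 in the VMH. That of 6 of 6 endothelial markers was 71.1 to 99.1 in the PVN, where Rxra was highest and Aldh1a1 lowest, against 26.7 to 37.3 in the ARC, 36.4 to 59.2 in the DMH and 25.1 to 52.5 in the VMH. The sum of 5 of 5 neuronal markers was 954 to 1237 in the VMH and 474 to 569 in the ARC, with the DMH at 654 to 758 and the PVN at 649 to 764. The sum of 4 of 4 markers of dopamine neurons was 41.8 to 77.1 in the ARC, 39.2 to 47.1 in the DMH, 17.4 to 25.9 in the PVN and 8.70 to 19.6 in the VMH. The part of these cells in the differences of the retinoid genes was not tested.

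With fasting, no retinoid gene passed the threshold in any nucleus. The same fit also missed the increase of Npy that the study called for the ARC. A missed threshold thus does not show that a gene was unchanged. Of 36 tests, 9 genes in 4 nuclei, 0 had an adjusted p under 0.1 (limma, lowest adjusted p = 0.540), where 0.0566% of all genes kept passed in the ARC. In the VMH, DMH and PVN the share was 0.131%, 0.0238% and 0.0715%. The unadjusted p was under 0.05 in 3 of 36, 1 each in the VMH, DMH and PVN, against 7.5%, 7.31%, 6.48% and 5.53% of all genes in the ARC, VMH, DMH and PVN. By the 2-sided exact permutation test 2 of 36 had p under 0.05, both in the DMH. The share of all genes at that p was not computed for this test. In none of the 36 were the fed and fasted libraries without overlap, which 0.742%, 0.277%, 1.15% and 0.402% of all genes reached in the ARC, VMH, DMH and PVN.

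The changes lay between −0.74 and 0.67 on the log2(RPKM + 1) scale with SE from 0.15 to 0.40. In the ARC, VMH, DMH and PVN they were positive for 5, 4, 7 and 1 of 9 genes, the last being Rxra. Their medians were 0.07, −0.05, 0.25 and −0.33 in that order, with a median of 0 over all genes kept in each nucleus. Genes kept without reads in either state count towards that 0, so it does not describe expressed genes alone. The test of whether the change with fasting differs between nuclei passed for 0 of the 9 genes, also with 0 at an unadjusted p under 0.05 (limma). Of all 33579 genes kept, 0.00596% passed and 1475 had an unadjusted p under 0.05. The smallest exact p that the numbers of libraries allow is 0.00794 for the ARC, 0.00216 for the VMH, 0.0159 for the DMH and 0.00433 for the PVN.

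No change of Crabp1 passed. Its fed and fasted ARC means were 210 ± 32.6 and 250 ± 36.4 RPKM (SD, n = 5 each), a change of 0.25 with a 95% interval of −0.38 to 0.88. That interval rests on a spread shared by all 8 groups, with a pooled SD of 0.49 on the log2 scale. The fed and fasted ARC alone had SDs of 0.22 and 0.21, so the interval is wide for the ARC. The limma adjusted p was 1 and the exact permutation p was 0.103. The within-batch changes in the ARC were 0.27, 0.26 and 0.23. The ARC marker sum was 1074 to 1480 RPKM in the fed and 1651 to 2626 RPKM in the fasted ARC libraries, and its part in that change was not tested. Its members did not move together: the means were 133 fed and 409 RPKM fasted for Agrp, which was itself called with fasting (limma adjusted p = 0.0613), and 345 and 913 for Npy (adjusted p = 0.464). Those of Pomc were 518 and 365 (adjusted p = 0.770), those of Tac2 106 and 79.8, and those of Ghrh 199 and 242 (adjusted p = 1 for both). Single ARC libraries held Npy at 284 to 453 RPKM when fed and at 591 to 1428 RPKM when fasted, without overlap. The study called this increase in wild-type mice, whereas the limma fit used here did not. A retinoid gene that was not called may therefore still change with fasting. In the other nuclei, where most libraries held fewer than 10 reads of Crabp1, its changes were 0.28 (VMH), 0.34 (DMH) and −0.47 (PVN).

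**Figure D4:**
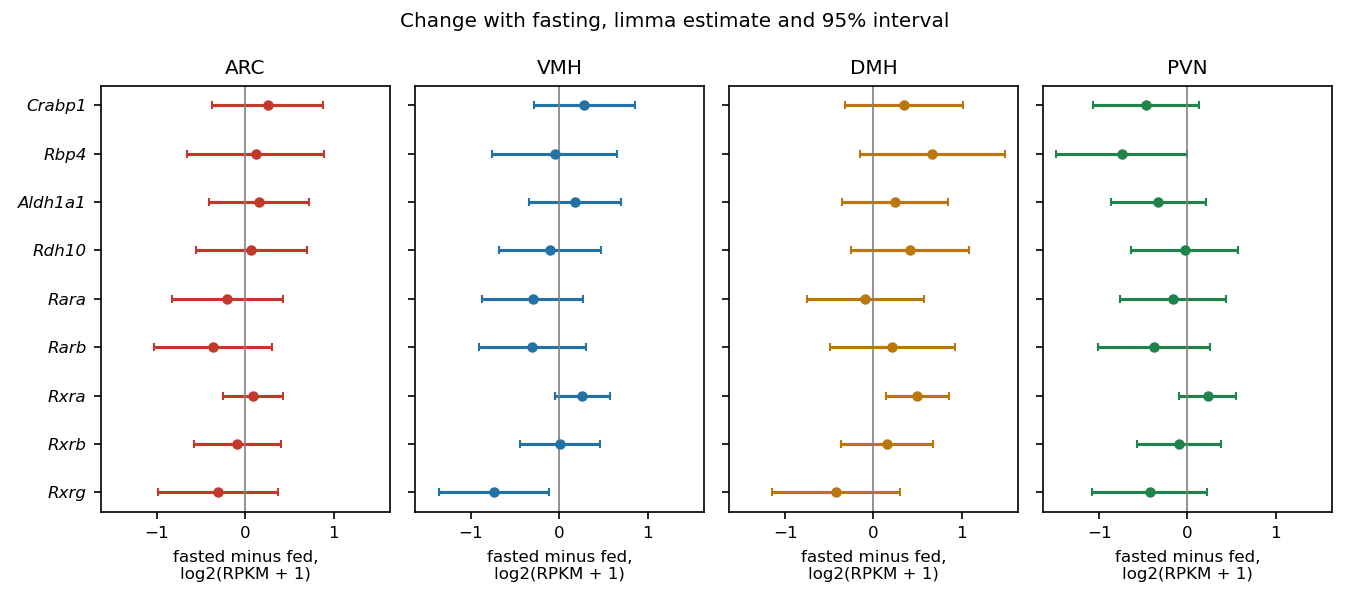
Change of each retinoid gene with fasting in each nucleus on the log2(RPKM + 1) scale, fasted minus fed, with 95% intervals from limma. The 36 changes lay between −0.74 and 0.67, and none passed an adjusted p of 0.1.

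Rxra in the DMH had the lowest p. The fed libraries were at 6.91, 8.41, 9.39, 12 and 8.61 RPKM, and the fasted ones at 11.9, 15.1, 12.4 and 12.9 RPKM. All 4 fasted libraries were above the fed mean, and a single fed library, replicate 4, reached into their range. The change was 0.50 (SE 0.18, limma unadjusted p = 0.00822, adjusted p = 0.634, exact permutation p = 0.0317). Within the batches that held both states it was 0.54 and 0.29. In the other nuclei Rxra was also higher with fasting, at 0.09 (ARC), 0.26 (VMH) and 0.23 (PVN), each with a limma unadjusted p above 0.05.

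The estimates for Rbp4 had opposite signs in the DMH and PVN. In the DMH the fed libraries were at 1.39, 1.08, 0.675, 1.10 and 2.06 RPKM, with 0 to 5 reads, and the 4 fasted ones, with 14 to 24 reads, were all above the fed mean, with overlap between the states. The change was 0.67 (SE 0.40, limma unadjusted p = 0.108, adjusted p = 0.943, exact permutation p = 0.0317) and 1.05 and 0.34 within the batches. In the PVN the fed libraries ran from 1.33 to 14.5 RPKM, median 3.32, and 4 of 5 fasted libraries were below the fed mean. The change there was −0.74 (SE 0.36, limma unadjusted p = 0.0494, adjusted p = 0.903, exact permutation p = 0.186), with 0.12, −1.10 and −0.65 within the batches. Without fed PVN replicate 2, the library at 14.5 RPKM, it was −0.40 (unadjusted p = 0.230 by limma). Neither change passed, and the difference between them was not called in the test across nuclei (unadjusted p = 0.0932).

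Rxrg in the VMH ran from 5.95 to 22.3 RPKM, median 7.72, in fed mice and from 1.69 to 10.1 RPKM, median 5.65, in fasted mice. All 6 fasted libraries were below the fed mean, and the states overlapped. The change was −0.74 (SE 0.31, limma unadjusted p = 0.0209, adjusted p = 0.540, exact permutation p = 0.0844) and −1.28, −0.76 and −0.18 within the batches. With array weights, which give less weight to variable libraries, it was −0.46 (limma unadjusted p = 0.112).

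The other genes of the pathway were taken from a list of 66, all in the table, of which 54 passed the filter on low values. With fasting 0 of the 54 passed in any nucleus (limma), with 6, 11, 4 and 5 at an unadjusted p under 0.05 in the ARC, VMH, DMH and PVN, and 0 passed in the test of whether the change differed between nuclei (5 at an unadjusted p under 0.05). Between fasted nuclei 11 of 54, or 20.4%, passed. Of all genes 11.9% passed with the filter of 1 RPKM, and 3709 of 17399 with a filter of 5 RPKM. No excess is therefore read from the 20.4%. The 11 were 0 of 9 genes of binding and transport, 3 of 24 of synthesis and storage, 1 of 2 of breakdown, 3 of 12 receptors and cofactors, and 5 of 9 genes listed as responding to retinoic acid, with Cyp26b1 in both the breakdown and the response list.

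Cyp26b1, an enzyme that destroys retinoic acid, was at 2.09 ± 0.668 RPKM in the fasted ARC against 0.313 ± 0.112, 0.382 ± 0.122 and 0.315 ± 0.213 in the VMH, DMH and PVN (limma adjusted p = 7.75e-08). Lrat, which stores retinol as an ester, was at 0.818 ± 0.335 RPKM in the ARC and at 0.220 ± 0.0448, 0.282 ± 0.0815 and 0.226 ± 0.0363 elsewhere in the same order (adjusted p = 0.0368). Both were near their no-read values, 0.226 and 0.205 RPKM, outside the ARC. Dhrs7, of the short-chain dehydrogenase family, was at 11.2 ± 4.82 RPKM in the ARC and 3.75 ± 2.86, 5.28 ± 3.02 and 6.49 ± 2.45 elsewhere (adjusted p = 0.0279). Rdh11, a retinaldehyde reductase, was highest in the VMH at 4.84 ± 1.77 RPKM and lowest in the DMH at 2.11 ± 0.478 (adjusted p = 0.0572).

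The orphan receptor Rorb was at 29.4 ± 3.88 RPKM in the fasted DMH against 11.6 ± 2.01 in the ARC, 10.7 ± 1.48 in the PVN and 6.62 ± 2.01 in the VMH (limma adjusted p = 1.52e-09). Its relative Rora was also highest in the DMH, at 9.31 ± 2.2 RPKM, and lowest in the ARC, at 4.98 ± 1.16 (adjusted p = 0.00221). The coactivator Ncoa2 ran from 12.2 ± 1.54 RPKM in the VMH to 20.2 ± 1.09 in the ARC (adjusted p = 0.000883). Among the response genes the transcription factor Meis2 was at 2.03 ± 1.05 RPKM in the DMH and at 0.466 ± 0.187 or less elsewhere (adjusted p = 2.03e-06), and Rai14 was at 7.44 ± 3.0 RPKM in the VMH and at 1.86 ± 0.735 or less elsewhere (adjusted p = 1.96e-06). Rai1 ran from 6.03 ± 0.409 RPKM in the ARC to 8.90 ± 2.23 in the PVN (limma adjusted p = 0.0371). Their nucleus of highest level was thus not the same.

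**Figure D5:**
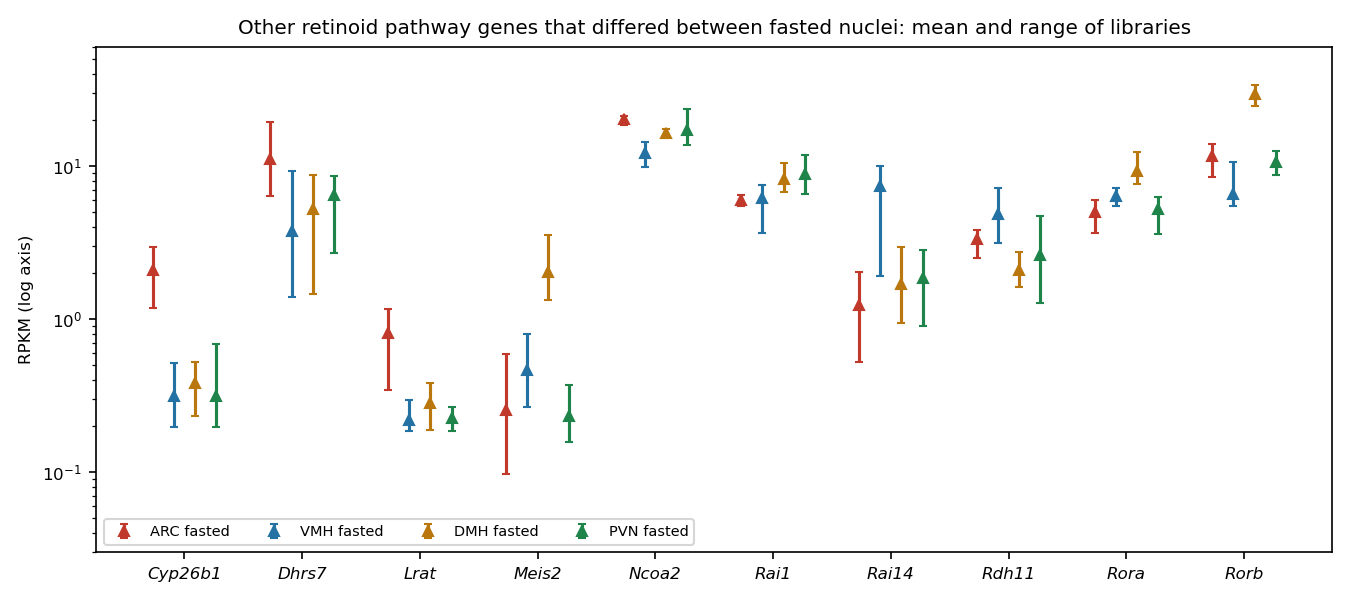
Level of 10 other pathway genes that differed between fasted nuclei, in RPKM on a log axis (triangles, group mean; bars, lowest to highest library). Cyp26b1, Lrat, Dhrs7 and Ncoa2 were highest in the ARC, Rorb, Rora and Meis2 in the DMH, Rai14 and Rdh11 in the VMH, and Rai1 in the PVN.

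Among the 3 highest genes of each list by mean RPKM over the 42 libraries were Fabp5 (7.10) and Ttr (2.72) for binding and transport, Adh5 (18.1), Rdh14 (16) and Dhrs7 (7.24) for synthesis and storage, and Cyp26b1 (0.785), Cyp26c1 (0.752) and Cyp26a1 (0.633) for breakdown. For receptors and cofactors they were Ncoa1 (33.1), Ncor1 (27.0) and Ncoa7 (16.8), and for response genes Rarres2 (10.2) and Rai1 (7.18). These means hold the added count, which weighs most on low values. In the breakdown list 2 of 4 genes passed the filter on low values.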

How the data were processed

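RNA of 42 laser-captured samples was sequenced as single-end, unstranded reads. The deposited values are RPKM, which the authors made per gene after GRCm38 alignment; the submitters' processing notes name CASAVA 1.7, TopHat2 2.0.11, Cufflinks 2.2.1, edgeR and limma, and the study's methods state that outlying samples had been removed and that libraries were prepared in batches. Of low values, 97.8% to 98.8% per library were whole reads above the no-read value (within 0.02 reads). The number of reads was solved from these steps, and the search was widened for Aldh1a1 after its values were seen. Depth estimated in this way was 1328992 to 13248793 reads, below the paper's average of sequenced reads.

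Groups and replicate numbers were those of the labels. Genes at 1 RPKM or more in at least 4 libraries (33579) entered limma 3.58.1 (R 4.3.3) on log2(RPKM + 1), with trend and 8 group means, 2-sided, Benjamini-Hochberg adjustment over all genes and a threshold of 0.1; the exact permutation test compared mean log2 values. The count model of the study was replaced because RPKM are not counts. Fold changes on this scale understate those of low genes. Gene names came from GENCODE M21. The code was tested on simulated data. All 9 retinoid genes are named; a fasting change is given singly where an unadjusted or exact p was under 0.05 or groups did not overlap; other pathway genes where called or among the 3 highest of their list; genes alike by the highest correlations. A few genes that this rule names are not reported here. The retinoid genes and lists were chosen with earlier results of these data known. The study's methods call the samples of a group biological replicates. Alternatives varied the added constant, filter, scaling, weights, depth, replicate block and libraries. No fit held a batch term. Batch entered only through differences of single genes, within a batch or with its shift undone, without a test.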

Additional observations from a re-analysis of the deposited data

Results flagged for a closer look

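In 6 of 72 groups (9 genes in 8 groups) the highest library lay far from the others by Dixon's criterion. It was applied to RPKM and not to the log values of the tests. Chance gives about 3.6 only if values are normally distributed, which RPKM need not be, so no excess is read from the number. All 6 were high values, in 5 libraries. In fasted PVN replicate 1, Crabp1 was at 4.55 RPKM (8 reads) against 1.61 to 2.27 in the other 4 libraries, and Rbp4 was at 5.55 RPKM (13 reads) against 0.927 to 2.08. Rbp4 was at 14.5 RPKM (25 reads) in fed PVN replicate 2, with the other 5 libraries at 1.33 to 4.68. Aldh1a1 was at 10.5 RPKM in fed PVN replicate 1 against 2.52 to 5.30. Rxrg was at 16.7 RPKM in fasted ARC replicate 1 against 4.77 to 7.63. These 5 values came from the first of the batches. The remaining one, Rxrb in fed VMH replicate 6 at 6.75 RPKM (29 reads) against 3.18 to 4.15, came from the third. No change with fasting was called as different between nuclei.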

How the results depend on the processing

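The number of retinoid genes called was within 1.5 times its main value under all alternatives run, and 0 for fasting in each. A fit adjusted for batch was not among them. Leaving out 1 library gave 4 to 5 genes between fasted nuclei. Directions turned within the first batch, which holds 1 fasted ARC and 1 fasted PVN library: Rbp4 with fasting in the PVN was 0.12, and fasted ARC minus PVN was −1.24 for Rbp4 and −0.37 for Rarb. The call of Rarb between ARC and VMH was also lost without fasted VMH replicate 1 and with the replicate block, and that between ARC and PVN without fasted PVN replicate 2. The cause was not tested. The change of Rbp4 with fasting in the DMH was larger than the main 0.67, at most 1.07, with 0.1 or nothing added or a depth covariate (each over 1.5 times as large), and Rarb between fasted ARC and PVN was 1.79 with nothing added, against 1.18. The single-marker values and the read ratios without a library were chosen after seeing the data. Deviations from group means in same-numbered libraries correlated at −0.121 to 0.054 over 20 fed and fasted pairs, and at −0.131 to 0.065 over 58 pairs between nuclei. Such values cannot show which libraries share a mouse. The replicate block gave 5 genes between fasted nuclei and 0 with fasting. Over all genes, the main counts for fasting were 19 (ARC), 44 (VMH), 8 (DMH) and 24 (PVN), with 2 for the interaction. Adding 0.1 or nothing to the RPKM gave 8 in the ARC and 1 for the interaction; a filter of 5 RPKM gave 5 in the DMH and 1 for the interaction. Array weights gave 40, 16, 56 and 141, 8 for the interaction, and 1565 rather than 1009 between DMH and PVN. Only the libraries compared gave 0 (1518 at an unadjusted p under 0.05), 1, 0 (1361) and 3. The block gave 3 in the ARC, 0 in the VMH (2116 at an unadjusted p under 0.05), 5 in the DMH and 0 for the interaction (1240). Leaving out 1 library gave 6 to 31, 16 to 64, 6 to 89 and 11 to 48, and 2 to 7 for the interaction. Depth limits Crabp1 and Rbp4 most, with a median of 4 and 5 reads a value, against 29.5 to 199.5 for the other retinoid genes.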
